A study of Homo sapiens with 12 samples.

Results

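The genes described here are 10 neighbours of ERBB2 (HER2), in or near chromosome 17q12. They are GRB7, STARD3, PGAP3, TCAP, PNMT, C17orf37, CDK12, MED1, PSMD3 and GSDMB. They were picked by name, as genes near ERBB2, from the 20531 genes in the files, with ERBB2 itself left out and kept as the comparator. They are not every gene of that stretch. NEUROD2, PPP1R1B, IKZF3, ZPBP2, ORMDL3 and GSDMA lie among them and are counted below in a list of 28 genes called the wider flank. The question was whether neighbours that lie on the same amplified stretch of DNA respond to lapatinib and to FOXA1 siRNA as ERBB2 does. RNAseq was performed on SKBR-3, an established HER2+ and estrogen receptor negative breast cancer cell line, with 3 libraries in each of 4 groups. Cells were transfected with non-targeting (NT) siRNA or with an siRNA pool against FOXA1, and were then given either DMSO or lapatinib at 300 nM over 24 h. Lapatinib inhibits the kinases of HER2 and EGFR. All groups are from 1 cell line, all carry an siRNA pool, and no group is without transfection. The labels give 48 h of siRNA, while the methods give 24 h before the drug. The labels do not say whether replicates were separate cultures, so p-values measure the spread between these libraries, which may be technical. DNA copy number was not analysed here.

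HER2 gene amplification raises the number of DNA copies of ERBB2 and of the genes around it, and those copies are usually transcribed. Each gene in such an amplicon keeps its own promoter, and enhancers can act on some genes of the stretch and not on others. FOXA1 is a pioneer transcription factor that opens chromatin at enhancers of luminal breast cells. Inhibition of the HER2 kinase is known to release feedback that raises transcripts of the HER receptor family.

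The libraries held between 25749578 and 32271850 expected counts. Normalized counts below are counts scaled by TMM library sizes to the mean depth of the 12 libraries. FOXA1, the target of the siRNA, had 8446, 8308 and 8767 normalized counts in replicates 1 to 3 with NT siRNA and DMSO and 1160, 1362 and 1564 with FOXA1 siRNA and DMSO. Under lapatinib FOXA1 had 12672, 12168 and 13177 in the NT siRNA libraries and 1642, 1889 and 2384 in the FOXA1 siRNA libraries, log2 fold changes of -2.63 in DMSO and -2.69 in lapatinib, so FOXA1 was low in all 6 FOXA1 siRNA libraries. In bulk RNA, fewer cells of a kind and less RNA per cell cannot be told apart. The epithelial keratins KRT8, KRT18 and KRT19 were between 2062 and 5329 TPM in all libraries, whereas CDH1 (E-cadherin) was at 0.03 to 0.25 TPM and ESR1 at 0.16 to 0.98 TPM. Among 7 markers of other cell types the highest was COL1A1, at 2.74 to 5.58 TPM. Replicate 2 of NT siRNA and DMSO stood apart in its group, with 0.834% of its counts in ERBB2 against 0.688% and 0.696% in the other replicates. Over all genes replicate 2 stood apart from replicates 1 and 3 in each of the 4 groups, with a chi-square per degree of freedom of 12.7 to 18.5 in the 8 pairs that hold it against 3.75 to 5.94 in the 4 pairs of replicates 1 and 3. Results that change without NT siRNA DMSO replicate 2, or without replicate 2 of every group (2 against 2 libraries, an alternative chosen after seeing the data), are given with and without it.

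The 10 genes span 594 kb, chr17:39404285-39997959 of GRCh38.p14 (RefSeq positions, matched by Entrez gene ID). On the side before ERBB2 lie MED1 (chr17:39404285-39451263, minus strand), CDK12 (chr17:39461486-39567559, plus) and STARD3 (chr17:39637144-39664201, plus). Nearer to ERBB2 lie TCAP (chr17:39665349-39666554, plus), PNMT (chr17:39668019-39670475, plus) and PGAP3 (chr17:39671122-39688057, minus). ERBB2 itself is at chr17:39688094-39728658 on the plus strand. Beyond it lie C17orf37 (chr17:39728510-39730532, minus, now named MIEN1), GRB7 (chr17:39737938-39747285, plus), GSDMB (chr17:39904595-39918635, minus) and PSMD3 (chr17:39980807-39997959, plus). C17orf37 overlaps the last 149 bases of ERBB2 on the opposite strand. The sources used here name both a stranded library kit (KAPA) and the TruSeq RNA v2 kit, and do not say if strand was used in counting, so reads in that overlap cannot be assigned with certainty.

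Gene starts here are the outer edges of the RefSeq genes. The starts of single transcripts were not examined, and transcripts of either gene may begin elsewhere. By these edges the starts of PGAP3 and ERBB2 lie 37 bases apart on opposite strands. Of the 36 bases between them, 29 are shown (chr17:39688063-39688091, GRCh38.p14, plus strand), because they carry 2 copies of the letters CCGGAA, 1 on each strand, which form the core of an ETS factor motif. The capitals mark these 2 matches.
PGAP3-ERBB2: ttccacTTCCGGagtaaCCGGAAgttcct

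RefSeq promoter sequences (250 bases before the gene start, GRCh38.p14) were matched for 6 of the 10 genes: STARD3, PGAP3, C17orf37, CDK12, MED1 and PSMD3. GRB7, TCAP, PNMT and GSDMB were not matched. CCGGAA was found on either strand in 14.5% of all 35116 promoters, and among the 6 it was found in PGAP3 and STARD3. The FOX motif GTAAACA or GTCAACA was found on either strand in 4.84% of all promoters. It was found once in PGAP3, beginning 235 bases before the start, and once in PSMD3, beginning 40 bases before the start. The match counted for PGAP3 lies 192 bases past the ERBB2 start, inside the ERBB2 gene. None was found in the 250 bases before the gene starts used here for ERBB2, STARD3, C17orf37, CDK12 or MED1. A single promoter sequence was searched per gene, so promoters at other transcript starts are not covered. PSMD3 (chr17:39980557-39980806, plus strand) and C17orf37 (chr17:39730533-39730782, minus strand) are shown as a promoter with this motif and one without it, and the capitals mark the motif. A match describes letters only and is not a binding site.
PSMD3: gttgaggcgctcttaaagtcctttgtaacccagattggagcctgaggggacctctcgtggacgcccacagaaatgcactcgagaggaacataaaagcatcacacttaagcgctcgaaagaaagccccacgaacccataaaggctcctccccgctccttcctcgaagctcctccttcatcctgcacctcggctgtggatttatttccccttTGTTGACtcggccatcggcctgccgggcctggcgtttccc
C17orf37: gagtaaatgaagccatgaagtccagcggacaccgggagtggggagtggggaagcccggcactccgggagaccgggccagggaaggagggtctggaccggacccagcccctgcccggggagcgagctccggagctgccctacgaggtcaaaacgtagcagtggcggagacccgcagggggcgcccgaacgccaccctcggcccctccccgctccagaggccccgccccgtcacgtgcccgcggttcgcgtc

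Levels of different genes were compared in TPM, the authors' value per transcript length. With NT siRNA and DMSO, 8 of the 10 neighbours were above 100 TPM, against 11 of 28 genes of the wider 17q12-q21 flank and 8.35% of all 20531 genes. The flank list includes genes that lie among the neighbours. These were ORMDL3 at 251 TPM, PPP1R1B at 50.9, IKZF3 at 1.01, NEUROD2 at 0.0533, GSDMA at 0.04 and ZPBP2 at 0.01. Both lists were drawn up with earlier results known, so the contrast between them rests on which genes were picked. ERBB2 was at 3073 ± 365 TPM (SD, n = 3), the rank of 21 among all genes. C17orf37 at 978 ± 48.1 TPM and PSMD3 at 977 ± 47.6 TPM came next and did not differ beyond their spread. CDK12 at 688 ± 14.7 TPM and GSDMB at 686 ± 20.2 TPM followed and also overlapped. STARD3 was at 407 ± 28.9 TPM, MED1 at 359 ± 13.3 TPM and GRB7 at 322 ± 15.01 TPM, and the libraries of these 3 genes did not overlap. PGAP3 was lower, at 107 ± 9.09 TPM. TCAP at 7.58 ± 2.06 TPM and PNMT at 2.14 ± 0.371 TPM were low, although they lie between STARD3 and PGAP3.

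Lapatinib with NT siRNA moved the neighbours in both directions while ERBB2 rose. ERBB2 had 210948, 249125 and 211257 normalized counts in DMSO and 442704, 428653 and 458418 in lapatinib, a log2 fold change of 1.01 ± 0.07 (SE, edgeR quasi-likelihood test, Benjamini-Hochberg adjusted p = 1.33e-05). GRB7, TCAP and PGAP3 rose, CDK12, C17orf37 and PSMD3 fell, and STARD3, PNMT, MED1 and GSDMB did not pass the test. These 3 and 3 of 10 genes stand against 30.5% of all 13713 tested genes called higher and 29.2% called lower, so that the share of neighbours called was near the background. The median log2 fold change of the 10 genes was 0.00, and that of all genes was 0.03. A log2 fold change of at least 1 was reached by GRB7 alone of the 10, against 6.64% of all genes called higher by that much.

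**Figure D1:**
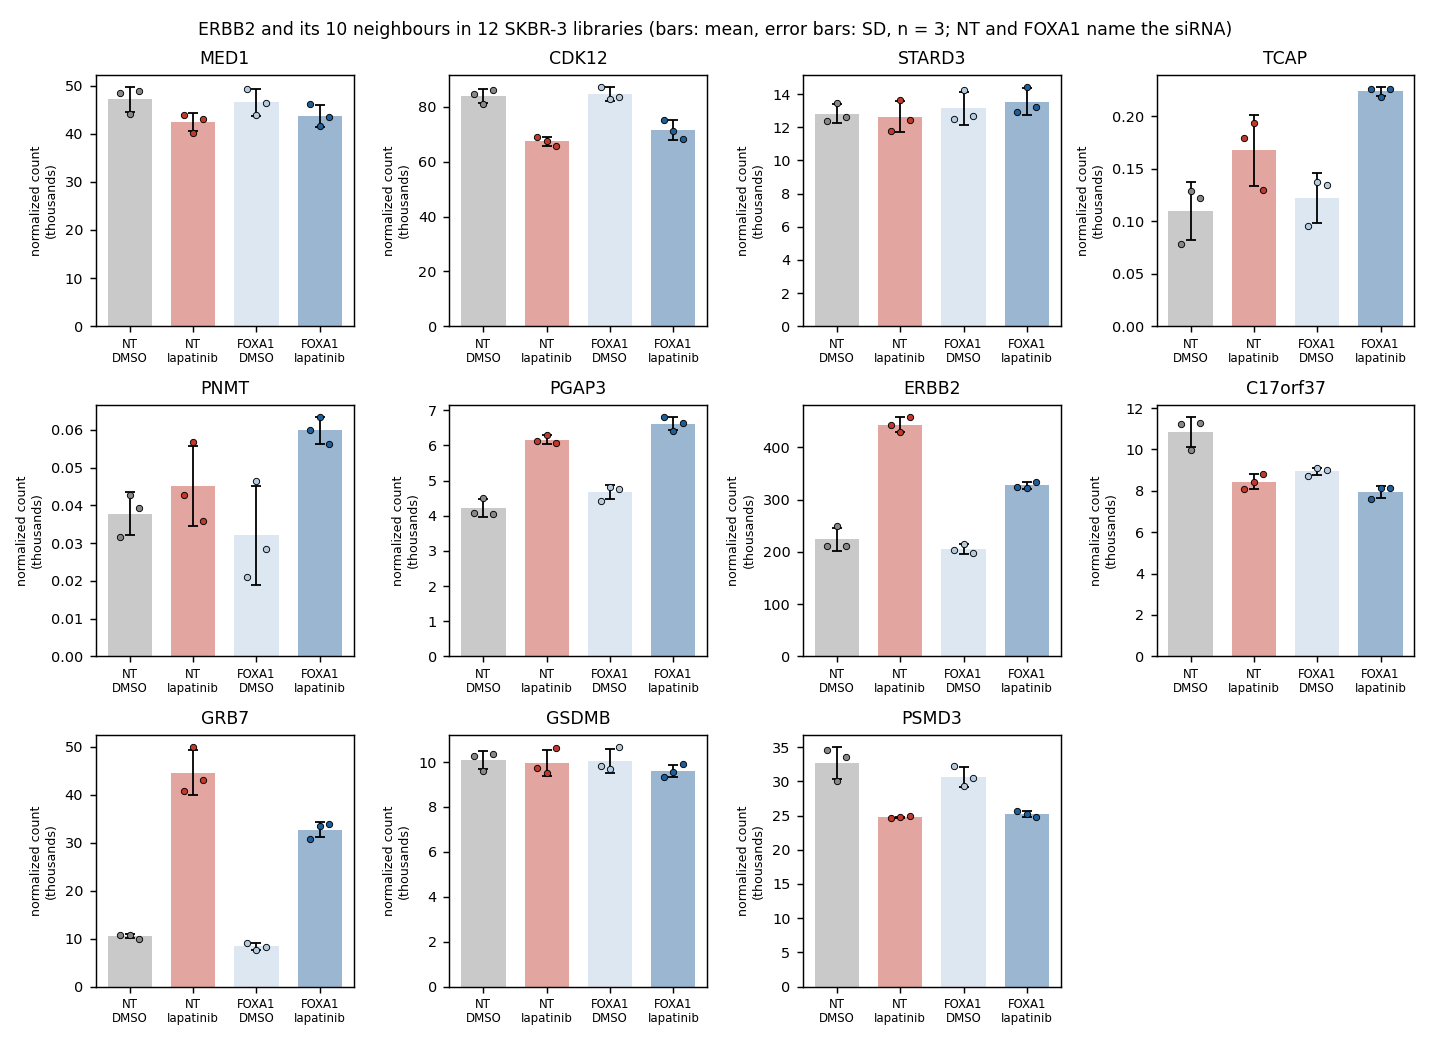
Normalized counts (linear axes from 0, scaled as labelled) of ERBB2 and its 10 neighbours in the 12 libraries, with bars at the group mean and error bars of 1 SD (n = 3). GRB7 rises in lapatinib with both siRNA pools like ERBB2, PGAP3 rises less, PSMD3 and CDK12 fall, and STARD3 and GSDMB overlap between the groups.

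GRB7 encodes an adaptor protein that binds phosphorylated HER2 through its SH2 domain. It had 10778, 10663 and 9952 normalized counts with NT siRNA and DMSO and 40871, 49958 and 42996 with NT siRNA and lapatinib. With the FOXA1 pool it had 9144, 7696 and 8243 in DMSO and 30852, 33494 and 33862 in lapatinib. All lapatinib libraries were above all DMSO libraries, and the FOXA1 siRNA libraries were below the NT siRNA libraries under either treatment. The log2 fold change to lapatinib was 2.11 ± 0.08 with NT siRNA (edgeR adjusted p = 1.47e-06) and 1.98 ± 0.07 with FOXA1 siRNA (edgeR adjusted p = 1.49e-06). In TPM, GRB7 stood at 10.5% ± 0.889 of the ERBB2 level with NT siRNA and DMSO and at 22.6% ± 3.18 with NT siRNA and lapatinib (SD, n = 3). Under FOXA1 siRNA it stood at 9.19% ± 1.01 in DMSO and 22.5% ± 1.06 in lapatinib. In lapatinib with NT siRNA GRB7 had the highest TPM of the 10 genes, 1350 ± 161 (SD, n = 3).

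Among the other adaptors listed with GRB7 (GRB10, GRB14, GRB2 and SHC1), none rose and 2 of 4 fell in lapatinib with NT siRNA, with a median log2 fold change of -0.20. GRB2, which links receptors to RAS, went from 4741 ± 107 to 3858 ± 156 normalized counts, a log2 fold change of -0.28 ± 0.05 (edgeR adjusted p = 0.00174).

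PGAP3 encodes a phospholipase that remodels the lipid of GPI anchors in the Golgi. It had 4074, 4502 and 4047 normalized counts with NT siRNA and DMSO and 6116, 6308 and 6071 with NT siRNA and lapatinib. Under FOXA1 siRNA it had 4434, 4823 and 4770 in DMSO and 6811, 6422 and 6635 in lapatinib. The lapatinib libraries lay above the DMSO libraries without overlap. Its log2 fold change to lapatinib was 0.57 ± 0.06 with NT siRNA (edgeR adjusted p = 7.14e-05) and 0.51 ± 0.05 with FOXA1 siRNA (edgeR adjusted p = 4.76e-05). PGAP3 thus changed in the same direction as ERBB2, whose outer gene edge it adjoins in the stretch printed above, but by less.

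STARD3 encodes a late endosomal protein of the START family that moves cholesterol between membranes. It had 12369, 13494 and 12624 normalized counts with NT siRNA and DMSO and 11794, 13675 and 12472 with NT siRNA and lapatinib, and these groups overlapped. After FOXA1 siRNA it had 12478, 14283 and 12677 in DMSO and 12944, 14465 and 13257 in lapatinib, which also overlapped. Replicate 2 was the highest library of STARD3 in each of the 4 groups. The log2 fold change to lapatinib was 0.00 with NT siRNA, with a 95% interval of -0.15 to 0.15, so that a change as large as that of ERBB2 lay outside it. Of 5 START and GPI-anchor relatives (including STARD10, STARD4 and PGAP2), 1 rose and 2 fell in lapatinib with NT siRNA, and their median log2 fold change was -0.21. STARD4, another cholesterol carrier, had a log2 fold change of -0.72 ± 0.12 (edgeR adjusted p = 0.0011), STARD10 of 0.24 ± 0.08 (edgeR adjusted p = 0.0337) and PGAP2, a further GPI-anchor remodelling gene, of -0.24 ± 0.07 (edgeR adjusted p = 0.0158).

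TCAP (telethonin) is a protein of the muscle sarcomere and PNMT is the enzyme that makes adrenaline from noradrenaline. Both were low here, and their values rest on few reads. TCAP had 77.8, 129 and 122 normalized counts with NT siRNA and DMSO and 180, 194 and 129 with NT siRNA and lapatinib. The lowest lapatinib library, at 129.3, lay just above the highest DMSO library, at 128.9. Before scaling, the same 2 libraries stood at 126 and 130 counts, and in TPM at 8.67 and 9.12, so the groups overlapped in both units. With FOXA1 siRNA TCAP had 94.9, 138 and 134 in DMSO and 226, 218 and 226 in lapatinib, and these did not overlap. The log2 fold change of TCAP was 0.63 ± 0.23 with NT siRNA (edgeR adjusted p = 0.0414) and 0.88 ± 0.15 with FOXA1 siRNA (edgeR adjusted p = 0.00126). With NT siRNA the call was lost in edgeR without DMSO replicate 1 (adjusted p = 0.118), DMSO replicate 3 (adjusted p = 0.0641), lapatinib replicate 1 (adjusted p = 0.112) or lapatinib replicate 2 (adjusted p = 0.111), and with total-count scaling (adjusted p = 0.0567).

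PNMT had 31.5, 42.6 and 39.3 normalized counts with NT siRNA and DMSO and 42.8, 56.7 and 35.9 with NT siRNA and lapatinib, which overlapped. With the FOXA1 pool it had 20.98, 46.5 and 28.6 in DMSO and 59.9, 63.4 and 56.3 in lapatinib, which did not. Its log2 fold change was 0.28 ± 0.24 with NT siRNA (edgeR adjusted p = 0.356) and 0.90 ± 0.27 with FOXA1 siRNA (edgeR adjusted p = 0.0204). The second call was lost in edgeR without FOXA1 siRNA DMSO replicate 1 (adjusted p = 0.0579), DMSO replicate 3 (adjusted p = 0.0645) or lapatinib replicate 1 (adjusted p = 0.0526).

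C17orf37 (MIEN1) encodes a small membrane-anchored protein linked to cell migration. It had 11240, 9985 and 11294 normalized counts with NT siRNA and DMSO and 8102, 8443 and 8794 with NT siRNA and lapatinib, with no overlap. Under FOXA1 siRNA it had 8735, 9093 and 8992 in DMSO and 7595, 8111 and 8121 in lapatinib. C17orf37 was lower in lapatinib than in DMSO with either siRNA pool, although its gene overlaps the end of ERBB2, which was higher. The log2 fold change was -0.34 ± 0.06 with NT siRNA (edgeR adjusted p = 0.00115) and -0.16 ± 0.04 with FOXA1 siRNA (edgeR adjusted p = 0.0106). The latter call was lost without FOXA1 siRNA lapatinib replicate 1 (edgeR adjusted p = 0.0512).

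CDK12 is a kinase that, with cyclin K, phosphorylates the tail of RNA polymerase II during elongation. It had 84890, 80951 and 86154 normalized counts with NT siRNA and DMSO and 69071, 67731 and 65837 with NT siRNA and lapatinib. After FOXA1 siRNA it had 87462, 82753 and 83752 in DMSO and 75409, 71064 and 68397 in lapatinib. No lapatinib library reached a DMSO library. Its log2 fold change to lapatinib was -0.29 ± 0.04 with NT siRNA (edgeR adjusted p = 0.000405) and -0.23 ± 0.04 with FOXA1 siRNA (edgeR adjusted p = 0.00233).

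Of 6 genes listed with CDK12 (its partner CCNK, its paralog CDK13, and CDK9, CCNT1, CDK7 and CCNH), 2 rose and 2 fell in lapatinib with NT siRNA, with a median log2 fold change of 0.04. CDK13 rose from 6377 ± 112 to 8487 ± 309 normalized counts (log2 fold change 0.43 ± 0.05, edgeR adjusted p = 7.47e-05), opposite to CDK12. CCNK fell from 879 ± 20.7 to 715 ± 62.9 normalized counts (log2 fold change -0.28 ± 0.08, edgeR adjusted p = 0.015), as CDK12 did. CDK7, the kinase of TFIIH, had a log2 fold change of 0.30 ± 0.07 (edgeR adjusted p = 0.00771) and its cyclin CCNH one of -0.54 ± 0.08 (edgeR adjusted p = 0.000396).

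MED1 is the Mediator subunit that nuclear receptors bind, and it had 48574, 44151 and 48877 normalized counts with NT siRNA and DMSO and 43920, 40279 and 43078 with NT siRNA and lapatinib. With the FOXA1 pool it had 49402, 43835 and 46431 in DMSO and 46218, 41688 and 43404 in lapatinib. The NT siRNA groups did not overlap, by a narrow margin, and the FOXA1 siRNA groups did. Replicate 2 was the lowest library of MED1 in each of the 4 groups. The log2 fold change was -0.13 ± 0.05 with NT siRNA (edgeR adjusted p = 0.0655) and -0.08 ± 0.06 with FOXA1 siRNA (edgeR adjusted p = 0.243). Blocking on replicate number moved both past the threshold (edgeR adjusted p = 0.0117 and 0.0246), at log2 fold changes of -0.13 and -0.08. The first was also called with RLE (edgeR adjusted p = 0.0493), upper-quartile (0.0429) or total-count scaling (0.0188), with no filter (0.0394), with 10 counts in every library (0.0487) and with 1 model for all libraries (0.035). Without NT siRNA DMSO replicate 2 the first became -0.20 (edgeR adjusted p = 0.0096), and without replicate 2 of every group -0.155 (edgeR adjusted p = 0.00237).

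Of 32 other Mediator subunits, 8 rose and 10 fell in lapatinib with NT siRNA, with a median log2 fold change of -0.03. CDK19, a kinase of the complex, rose from 1315 ± 147 to 2496 ± 78.0 normalized counts (log2 fold change 0.95 ± 0.08, edgeR adjusted p = 2.65e-05). MED23 at 0.66 ± 0.07 (edgeR adjusted p = 8.61e-05) and MED13L at 0.42 ± 0.06 (edgeR adjusted p = 0.0004) also rose. MED22 at -0.62 ± 0.08, MED27 at -0.58 ± 0.13 and MED24 at -0.44 ± 0.06 fell, with edgeR adjusted p = 0.000251, 0.00592 and 0.000419. MED24 lies in the flank, 366 kb from the ERBB2 start.

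PSMD3 encodes a non-ATPase subunit of the 19S cap of the proteasome. It had 34520, 30030 and 33497 normalized counts with NT siRNA and DMSO and 24640, 24715 and 24871 with NT siRNA and lapatinib. Under FOXA1 siRNA it had 32200, 29297 and 30483 in DMSO and 25648, 25220 and 24825 in lapatinib. All 6 lapatinib libraries lay within a narrow range below all 6 DMSO libraries. Its log2 fold change to lapatinib was -0.38 ± 0.05 with NT siRNA (edgeR adjusted p = 0.000383) and -0.27 ± 0.04 with FOXA1 siRNA (edgeR adjusted p = 0.000871). Of 13 other non-ATPase subunits of the 19S cap, none of which is in the 17q12-q21 list, none rose and 10 fell with either siRNA pool, and the median log2 fold change was -0.37 in the NT siRNA comparison and -0.36 in the other. PSMD14, the deubiquitinase of the cap, fell from 3017 ± 213 to 1363 ± 147 normalized counts with NT siRNA (log2 fold change -1.12 ± 0.09, edgeR adjusted p = 1.98e-05). PSMD2 at -0.92 ± 0.08 and PSMD11 at -0.71 ± 0.06 followed, with edgeR adjusted p = 2.84e-05 and 3.14e-05. The log2 fold change of PSMD3 thus lay near the median of this list and was opposite in sign to that of ERBB2.

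GSDMB encodes gasdermin B, a pore-forming protein of pyroptosis. It had 10264, 9616 and 10359 normalized counts with NT siRNA and DMSO and 9752, 9490 and 10621 with NT siRNA and lapatinib, which overlapped. After FOXA1 siRNA it had 9805, 9694 and 10674 in DMSO and 9351, 9566 and 9907 in lapatinib, which overlapped as well. Its log2 fold change to lapatinib with NT siRNA was 0.00, with a 95% interval of -0.12 to 0.13. Of the 2 other gasdermin genes tested in that comparison, GSDMD fell, with a log2 fold change of -0.42 ± 0.11 (edgeR adjusted p = 0.00875).

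With FOXA1 siRNA the response to lapatinib called 4 neighbours higher (GRB7, PGAP3, TCAP and PNMT) and 3 lower (CDK12, C17orf37 and PSMD3). Among all 13745 genes tested, 29.0% were called higher and 29.1% lower. STARD3 at 0.05 (95% interval -0.09 to 0.20) and GSDMB at -0.06 (95% interval -0.17 to 0.06) again did not pass, and their intervals do not reach the log2 fold change of ERBB2. With a log2 fold change of at least 1, GRB7 was again the sole gene of the 10 called, against 4.93% of all genes called higher by that much. ERBB2 rose from 203306, 214885 and 197295 to 324585, 322236 and 334460 normalized counts, a log2 fold change of 0.68 ± 0.04 (edgeR adjusted p = 5.44e-06).

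**Figure D2:**
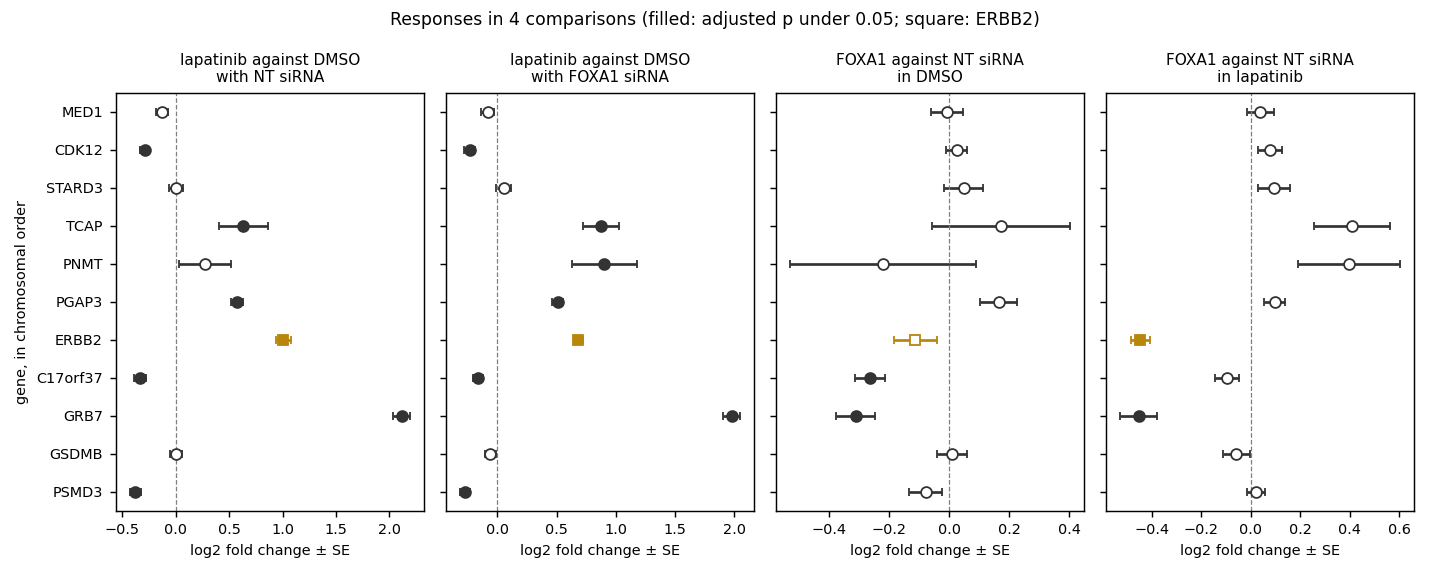
Log2 fold changes with their SE for ERBB2 (square) and its 10 neighbours (circles) in chromosomal order, in the 4 comparisons, each from 3 against 3 libraries and with its own horizontal axis. Filled symbols passed an edgeR adjusted p under 0.05. GRB7 lies beyond ERBB2 in both lapatinib comparisons, and neighbours on either side of ERBB2 lie on both sides of 0.

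Each neighbour was then tested against ERBB2 directly, with the ERBB2 count of each library in place of the library size, so that 0 means a response equal to that of ERBB2. These tests share the ERBB2 counts and are therefore not independent of each other. In lapatinib with NT siRNA, GRB7 rose relative to ERBB2 by 1.10 ± 0.12 on the log2 scale (edgeR adjusted p = 1.1e-08), and 8 neighbours fell relative to it. Of all 13712 genes tested in this way, 2.50% rose and 82.2% fell relative to ERBB2. The 8 were STARD3 at -1.01, PGAP3 at -0.44, PNMT at -0.72, C17orf37 at -1.36, CDK12 at -1.31, MED1 at -1.15, PSMD3 at -1.40 and GSDMB at -1.02 on the log2 scale. TCAP was at -0.36 ± 0.21 (edgeR adjusted p = 0.112), and the block gave adjusted p = 0.0419 in edgeR, past the threshold. TCAP also passed without DMSO replicate 1 (edgeR adjusted p = 0.03) or lapatinib replicate 2 (edgeR adjusted p = 0.0412). The call of PNMT was lost without DMSO replicate 2 (edgeR adjusted p = 0.0518), DMSO replicate 3 (0.0693), lapatinib replicate 1 (0.0548) or lapatinib replicate 3 (0.106).

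With FOXA1 siRNA, GRB7 rose relative to ERBB2 by 1.29 ± 0.08 on the log2 scale (edgeR adjusted p = 1.17e-07) and 7 neighbours fell, against 4.10% and 74.8% of all genes. PGAP3 was the closest of the 7, at -0.17 ± 0.06 (edgeR adjusted p = 0.0285), and its call was lost without FOXA1 siRNA DMSO replicate 3 (edgeR adjusted p = 0.12), lapatinib replicate 2 (0.0707) or lapatinib replicate 3 (0.0852). TCAP at 0.20 ± 0.15 and PNMT at 0.23 ± 0.26 did not pass (edgeR adjusted p = 0.257 and 0.428). GRB7 was therefore the one neighbour whose rise exceeded that of ERBB2 with both siRNA pools.

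**Figure D3:**
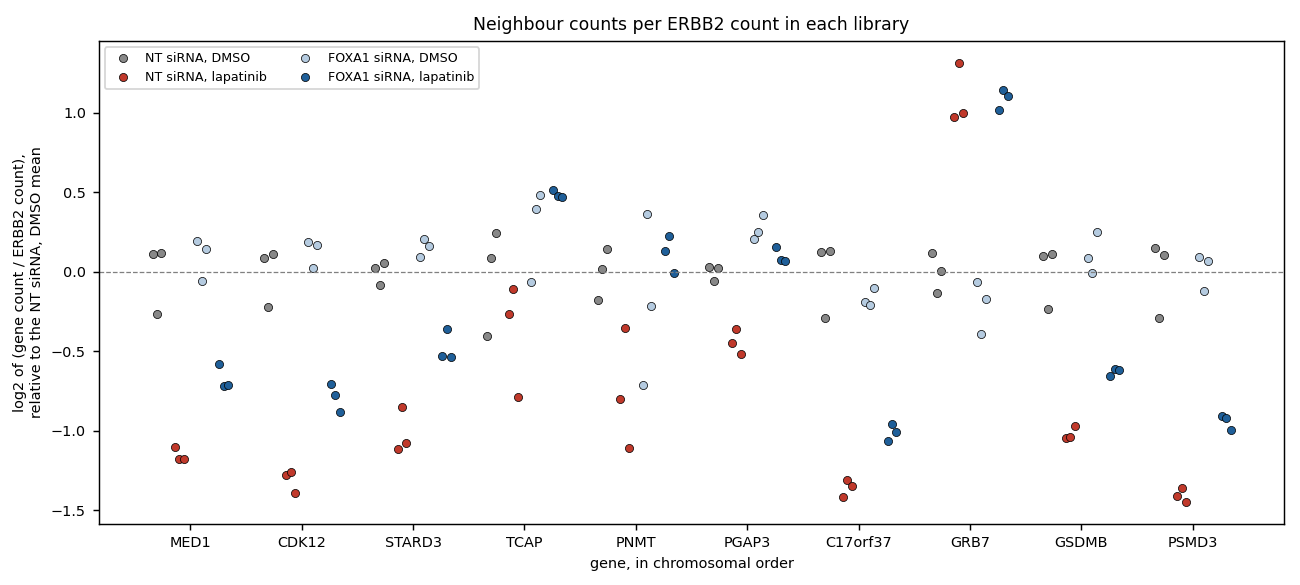
Log2 of the count of each neighbour divided by the ERBB2 count of the same library, set to 0 at the mean of NT siRNA and DMSO, with 1 point per library. GRB7 lies above 0 in all 6 lapatinib libraries, while MED1, CDK12, STARD3, C17orf37, GSDMB and PSMD3 lie below 0 in all 6.

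FOXA1 siRNA alone, in DMSO, called 2 neighbours lower and none higher, against 21.3% and 21.9% of all 13694 genes. C17orf37 fell by 0.26 on the log2 scale (SE 0.05, edgeR adjusted p = 0.00416) and GRB7 by 0.31 (SE 0.07, edgeR adjusted p = 0.00609). Among those not called, STARD3, CDK12, MED1 and GSDMB had log2 fold changes between -0.01 and 0.05, TCAP of 0.17, PNMT of -0.22, PGAP3 of 0.16 and PSMD3 of -0.08. ERBB2 was at -0.11 ± 0.07 (edgeR adjusted p = 0.244) and passed with the block (edgeR adjusted p = 0.0138). With the block PGAP3 was also called higher (0.17, edgeR adjusted p = 0.00272) and PSMD3 lower (-0.08, edgeR adjusted p = 0.0264), so that 1 was higher and 3 were lower, against 30.3% and 30.2% of all genes under that fit. PGAP3 and PSMD3 were likewise called without NT siRNA DMSO replicate 2 (0.22, edgeR adjusted p = 0.00871, and -0.13, edgeR adjusted p = 0.0398). Without replicate 2 of every group they were called as well (edgeR adjusted p = 0.00453 and 0.0375).

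Relative to ERBB2, FOXA1 siRNA in DMSO called PGAP3 higher (0.28 ± 0.10, edgeR adjusted p = 0.0489) and no neighbour lower, against 20.6% and 8.75% of all genes. The call of PGAP3 was lost without NT siRNA DMSO replicate 1 (edgeR adjusted p = 0.1) or replicate 3 (0.121), and without FOXA1 siRNA DMSO replicate 1 (0.12), replicate 2 (0.103) or replicate 3 (0.241). With the block GRB7 was also lower than ERBB2 (-0.20, edgeR adjusted p = 0.00866). Without NT siRNA DMSO replicate 2 both GRB7 (edgeR adjusted p = 0.0408) and C17orf37 (edgeR adjusted p = 0.00409) were lower, as they were without replicate 2 of every group (edgeR adjusted p = 0.00707 and 9.05e-05).

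Under lapatinib, FOXA1 siRNA lowered ERBB2 by 0.45 on the log2 scale (SE 0.04, edgeR adjusted p = 6.58e-05). GRB7 fell by 0.45 as well (SE 0.07, edgeR adjusted p = 0.00163), and it was the sole neighbour called, against 22.2% of all 13727 genes called lower. No neighbour was called higher, against 22.7% of all genes. The log2 fold changes of the other 9 lay between -0.10 for C17orf37 and 0.41 for TCAP, and the 3 libraries of TCAP and of PGAP3 with FOXA1 siRNA lay above those with NT siRNA. With the block 4 neighbours were higher (STARD3, PGAP3, TCAP and CDK12, by 0.08 to 0.42) and 2 lower (GRB7 and C17orf37), against 30.6% and 31.1% of all genes under that fit. Without NT siRNA lapatinib replicate 2, TCAP (0.53, edgeR adjusted p = 0.026) and PNMT (0.60, edgeR adjusted p = 0.0421) were called higher. Without replicate 2 of every group PGAP3 (0.13, edgeR adjusted p = 0.0305) and TCAP (0.55, edgeR adjusted p = 0.0249) were. Relative to ERBB2, 9 neighbours were higher and none lower, against 64.4% and 5.63% of all genes. GRB7 was the exception, at -0.01 ± 0.09 relative to ERBB2 (edgeR adjusted p = 0.917) and a 95% interval of -0.22 to 0.20. The 9 ranged from 0.35 for C17orf37 to 0.85 for TCAP on the log2 scale.

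The difference between the 2 lapatinib responses was tested as an interaction of siRNA and drug over the 12 libraries. No neighbour was called higher or lower in edgeR, while 3.99% of all 14012 genes were called higher and 3.20% lower. Without adjustment, 1 of 10 neighbours (C17orf37) had an edgeR p under 0.05, against 3117 of all 14012 genes. DESeq2 also called none of the 10. ERBB2 was at -0.31 ± 0.08 (edgeR adjusted p = 0.0424), that is, its rise was smaller with FOXA1 siRNA. With 1 library left out the call was kept in 2 of 12 fits, those without NT siRNA DMSO replicate 2 or NT siRNA lapatinib replicate 2, and in the other 10 the edgeR adjusted p was 0.0609 to 0.105. The call was also lost with upper-quartile scaling (edgeR adjusted p = 0.0695) and with no filter (0.0524). It was kept with the replicate block (edgeR adjusted p = 0.0117), with DESeq2 (adjusted p = 0.0138) and without replicate 2 of every group (edgeR adjusted p = 0.000283). GRB7 was at -0.12 ± 0.11 (edgeR adjusted p = 0.582), with a 95% interval of -0.36 to 0.12 that holds the value of ERBB2. C17orf37 was at 0.19 ± 0.07 (edgeR adjusted p = 0.156) and passed without NT siRNA DMSO replicate 2 (0.25, edgeR adjusted p = 0.0313) or without replicate 2 of every group (0.24, edgeR adjusted p = 0.0288).

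The share of each library held by the 10 neighbours together depended on the unit. As a share of expected counts it was 0.701% ± 0.0175 with NT siRNA and DMSO, 0.708% ± 0.0148 in lapatinib under NT siRNA, 0.687% ± 0.0154 in DMSO under FOXA1 siRNA and 0.686% ± 0.00858 in lapatinib under FOXA1 siRNA (SD, n = 3). The share of ERBB2 alone was 0.740%, 1.45%, 0.681% and 1.06% in the same order. Exact permutation tests of the neighbours' share gave p = 0.6 and 0.9 for lapatinib with NT and FOXA1 siRNA, and p = 0.4 and 0.1 for FOXA1 siRNA in DMSO and lapatinib (two-sided, 0.1 being the smallest p that 3 against 3 libraries allow). The 2 lapatinib groups did not overlap with each other, while the other 3 comparisons did. Between same-numbered libraries, the share was lower with FOXA1 siRNA in 3 of 3 pairs both in DMSO and in lapatinib (exact sign-flip permutation p = 0.25 each, two-sided, the smallest that 3 pairs allow). It was lower in lapatinib in 2 of 3 pairs with either siRNA pool (exact sign-flip permutation p = 1 each). This paired test was chosen after seeing the data. As a share of TPM, in which counts are divided by transcript length, the 10 genes held 0.487% ± 0.0117 in DMSO and 0.544% ± 0.0203 in lapatinib with NT siRNA (SD, n = 3). With FOXA1 siRNA they held 0.464% ± 0.00512 in DMSO and 0.506% ± 0.00396 in lapatinib. None of these TPM groups overlapped between DMSO and lapatinib or between the siRNA pools (exact permutation p = 0.1 in each of the 4 comparisons). The sum held the rise of GRB7 and the fall of CDK12, PSMD3 and C17orf37. Without GRB7 the share of the other 9 fell by 0.104 percentage points in lapatinib with NT siRNA and by 0.0799 with FOXA1 siRNA, with no overlap in either (exact permutation p = 0.1).

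**Figure D4:**
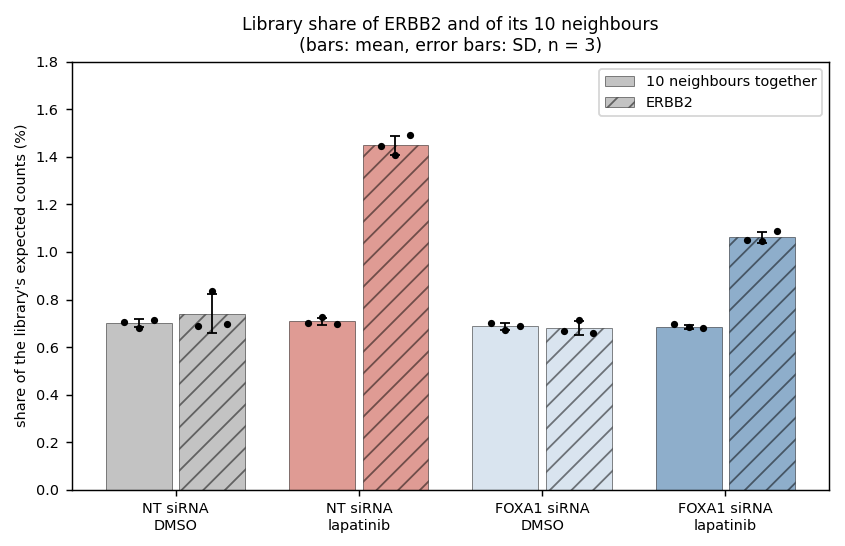
Share of the expected counts of a library (%) held by the 10 neighbours together (plain bars) and by ERBB2 (hatched bars), with the group mean, the SD (n = 3) and each library as a point. By expected counts the neighbours hold 0.686% to 0.708% in the 4 groups, while ERBB2 reaches 1.45% in lapatinib with NT siRNA.

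Along the region, PGAP3, TCAP and GRB7, which rose in lapatinib with NT siRNA, start within 49.8 kb of ERBB2. So do PNMT, which was not called, and C17orf37, which fell. That limit is the distance of GRB7 itself. STARD3, which starts at -50.95 kb with a log2 fold change of 0.00, lies just outside it. PPP1R1B follows at -61.4 kb, with a log2 fold change of -0.23, and was not called either. Of the 28 genes of the wider flank, 24 were tested, of which 7 rose and 9 fell, with a median log2 fold change of -0.16. FBXL20, an F-box gene beside MED1 with its start at -286 kb from that of ERBB2, rose from 2626 ± 214 to 4875 ± 55.6 normalized counts (log2 fold change 0.91 ± 0.06, edgeR adjusted p = 1.01e-05). ORMDL3, a regulator of sphingolipid synthesis beside GSDMB, had a log2 fold change of 0.34 ± 0.05 (edgeR adjusted p = 0.000558), and RPL19, a ribosomal protein gene, of 0.16 ± 0.03 (edgeR adjusted p = 0.00334). On the far side, the DNA replication gene CDC6 fell, with a log2 fold change of -3.43 ± 0.10 (edgeR adjusted p = 1.27e-06), as did the topoisomerase TOP2A at -1.39 ± 0.23 (edgeR adjusted p = 0.000938). IKZF3, whose start lies 176 kb beyond that of ERBB2, between GRB7 and GSDMB, was called higher as well (0.71 ± 0.24). It is low, at a mean of 48.4 normalized counts, and is named here after its values were seen. STAC2, on the near side, fell as well, at -1.17 ± 0.19 (edgeR adjusted p = 0.000783).

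**Figure D5:**
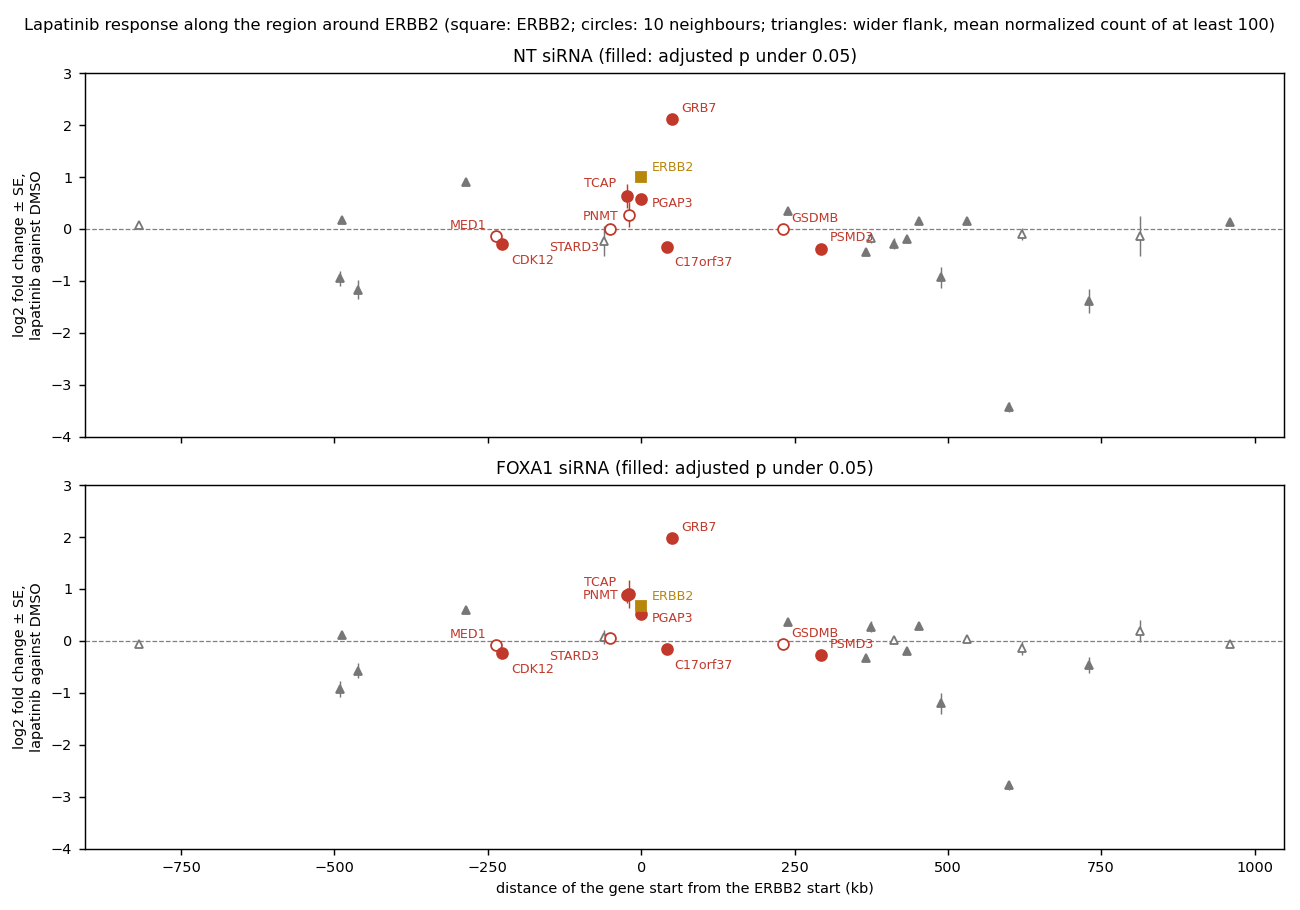
Log2 fold change (± SE) to lapatinib with NT siRNA (top) and FOXA1 siRNA (bottom) against the distance of each gene start from the ERBB2 start in kb, for ERBB2 (square), its 10 neighbours (circles) and the 19 flank genes with a mean normalized count of at least 100 (triangles). Filled symbols passed an edgeR adjusted p under 0.05, and genes at similar distances lie on both sides of 0.

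Across the 12 libraries the log2 normalized count of GRB7 had a Pearson r of 0.963 with ERBB2, PGAP3 of 0.834, TCAP of 0.626 and PNMT of 0.544. C17orf37 had r of -0.603, MED1 of -0.729, PSMD3 of -0.903 and CDK12 of -0.962, with STARD3 at -0.05 and GSDMB at -0.257. These values describe 12 libraries that fall into 4 groups and share their normalization. Within groups, after each group mean was removed, GRB7 had r of -0.148 with ERBB2, PGAP3 of 0.618 and PSMD3 of -0.82. The genes whose pattern over the 12 libraries was most like that of GRB7, among 10812 genes with a mean normalized count of at least 100, were KLHL38 (r = 0.997), ART5 (0.995) and SEMA6C (0.995). For PGAP3 they included OBSL1 (0.991) and SPG11 (0.991), and for TCAP they were WDR19 (0.938), TECPR2 (0.932) and NFATC4 (0.93). For PSMD3 they were USP1 (0.995), the proteasome ATPase PSMC3 (0.993) and MBD3 (0.992). For C17orf37 they were PSMD8, a 19S subunit of the list above (0.987), NUP62 (0.978) and RPL36AL (0.976), and for CDK12 BYSL (0.986), IRAK1 (0.983) and HNRNPR (0.982). No neighbour of ERBB2 was among these genes, but with only 3 of 10812 genes kept for each, this says little about the neighbours.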

How the data were processed

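The authors deposited for each of the 12 libraries an expected count (an estimated count that need not be whole, between 87.5% and 88.1% of values being whole) and a TPM per gene. The labels name RSEM, whose columns the files carry, while the methods name STAR and Salmon with hg38. The deposited TPM summed to between 896833 and 939340 per library. The upper-quartile normalized and FPKM columns were not used. Expected counts were rounded and tested in R 4.3.3 with edgeR 4.0.16 (quasi-likelihood, TMM) on every gene that reached 10 counts in 1 or more of the libraries compared, with Benjamini-Hochberg adjusted p under 0.05 as the call. Each comparison used its own 6 libraries, and the interaction all 12. The test against ERBB2 used the ERBB2 counts as library sizes.

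The members and lists were chosen with earlier results of these data known. The genes named were the 10 neighbours, ERBB2, FOXA1, up to 3 genes of each list per direction with the largest called change and 100 or more normalized counts on average, and the 3 genes most like each called neighbour. One gene that this rule names is not reported here. Libraries that share a number moved together around the means of their groups (mean r 0.427, lowest 0.267, over 10812 genes and 18 pairs). From these values the replicate numbers in the labels were read as pairing the samples. Different numbers gave a mean of -0.199. Taking out a mean of 3 libraries ties that value to the first, so it is no separate contrast. No 2 replicates were within counting noise of each other (chi-square per degree of freedom 12.7 to 18.5 in pairs with replicate 2 and 3.75 to 5.94 in the others). Intervals of fold changes are t intervals from the edgeR fits. Alternatives were RLE, upper-quartile and total-count scaling, DESeq2 1.42.0, limma 3.58.1 for the ratios, other filters and thresholds, 1 model for all libraries, the replicate block, and leaving out each library. A fit without replicate 2 of every group and a paired test of the summed share were chosen after seeing the data. Sequences and positions are from RefSeq. Python 3.11.15 with matplotlib drew the plots.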

Additional observations from a re-analysis of the deposited data

Results flagged for a closer look

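Between the FOXA1 and NT siRNA pools the log2 response of ERBB2 to lapatinib differed by -0.313, being the smaller under FOXA1 siRNA (interaction of siRNA and drug over 12 libraries, edgeR adjusted p = 0.0424). Leaving out 1 library moved it between -0.397 and -0.272 and kept the call in 2 of 12 cases. The call was kept with the replicate block (edgeR adjusted p = 0.0117) and DESeq2 (adjusted p = 0.0138) and lost with upper-quartile scaling (edgeR adjusted p = 0.0695) and no filter (0.0524). None of the 10 neighbours passed that test, against 3.99% of all 14012 genes called higher and 3.20% lower. The 95% interval of GRB7, -0.36 to 0.12, holds the value of ERBB2. The flank gene CDC6, which fell in lapatinib, differed in the opposite direction, by 0.664 (edgeR adjusted p = 0.0145), with 0.595 to 0.756 and the call kept when 1 library was left out. Groups of 3 libraries were not tested for single outlying libraries.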

How the results depend on the processing

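Of 1419 values of single genes under the alternatives, 1325 kept their direction and their side of the threshold, 94 crossed the threshold and 0 reversed, a change of sign between 2 values that were not called being left out of the reversals. For calls with a log2 fold change of at least 1, the count in lapatinib was 1 higher and 0 lower with either siRNA pool, and for FOXA1 siRNA it was 0 lower in DMSO and 0 lower in lapatinib. Of all genes, 6.64% were called higher by that much in lapatinib with NT siRNA and 4.93% with FOXA1 siRNA. For the other counts of this section the share of all genes is not given here. They show only how the neighbours' own calls moved. The replicate block gave 1 higher for FOXA1 siRNA in DMSO, 4 higher and 2 lower in lapatinib, and 1 lower relative to ERBB2 in DMSO. Beyond the calls given with the results, the block changed none of the 10 neighbours. With all 12 libraries in one model 1 neighbour was higher for FOXA1 siRNA in DMSO. Relative to ERBB2 that comparison gave 0 higher at an adjusted p under 0.01 and 0 with limma. Leaving out 1 library gave 0 to 1 higher for FOXA1 siRNA in DMSO, 0 to 2 higher in lapatinib, 0 to 1 higher for the interaction, and 0 to 1 higher and 0 to 2 lower relative to ERBB2 in DMSO.

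Without replicate 2 of every group, chosen after seeing the data, 1 was higher for FOXA1 siRNA in DMSO, 2 higher in lapatinib, 1 higher for the interaction and 2 lower relative to ERBB2 in DMSO.

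The difference in the neighbours' summed share (percentage points) in lapatinib with NT siRNA was 0.00699. It was 0.0573 as a share of TPM, -0.104 without GRB7 and -0.0114 without replicate 2 of every group, and leaving out 1 library gave -0.00282 (without NT siRNA DMSO replicate 2), -0.00156 (without NT siRNA lapatinib replicate 2) and up to 0.0139. With FOXA1 siRNA it was -0.00134. It was 0.0420 as a share of TPM, -0.0799 without GRB7 and 0.00254 without C17orf37. Leaving out 1 library gave -0.00915 to 0.00629, the highest without FOXA1 siRNA DMSO replicate 1, and 0.00244 without FOXA1 siRNA lapatinib replicate 3. For FOXA1 siRNA in lapatinib it was -0.0225, and -0.0380 as a share of TPM and 0.0171 without GRB7. The values without GRB7 follow from leaving out a gene that rose in lapatinib with either siRNA pool and was lower with FOXA1 siRNA under lapatinib. The cause of the other changes was not tested. TCAP and PNMT, at 20.98 to 226 normalized counts, have the widest intervals.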
